A study of Mus musculus with 288 samples.

Results

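The genes described here encode the constitutive 26S proteasome: the alpha ring Psma1 to Psma7, the beta ring Psmb1 to Psmb7, the ATPases Psmc1 to Psmc6 and the Psmd1 to Psmd14 series. They were taken by symbol from the deposited count table, and all 34 were found among its 23481 genes. Psmb8, Psmb9 and Psmb10, the catalytic subunits that replace Psmb5, Psmb6 and Psmb7 in the immunoproteasome, are not members and serve for comparison. Psmd5, Psmd9 and Psmd10 share the Psmd name but act as chaperones in the assembly of the base and leave the mature particle.

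The proteasome degrades proteins marked with ubiquitin. Stacked rings of alpha and beta subunits form the 20S core, in which the beta subunits cut the protein, and the 19S regulatory particle caps the core: its ATPases unfold the substrate, its scaffold subunits and receptors hold ubiquitin chains, and its lid removes the ubiquitin. In macrophages the proteasome supplies peptides for antigen presentation and degrades the inhibitor of NF-kB after ligand sensing, and the immunoproteasome subunits are classical targets of interferon signalling.

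The cells were bone marrow-derived macrophages of C57BL/6 mice aged 12 weeks, differentiated ex vivo with M-CSF for 7 days. Before stimulation they received DMSO (the solvent), or for 24 h either dCA at 100 nM or BRD-6989 at 1 uM, both labelled as CDK8 inhibitors. The labels used here record no duration for DMSO. CDK8 is a kinase of the Mediator complex, which relays signals from transcription factors to RNA polymerase II. Wells were then left without ligand (NoStim) or given CpG, FLA, LPS, MDP, MDP_LPS, Pam3cys, Poly(I:C), R848, SeV, TDB or Zymosan, and collected at 15, 30, 45, 60, 90, 120, 150 or 180 min, so that each combination had 1 well, 288 in all. The labels give the 96 wells of each pretreatment a library index of their own and a well position, called a plate here. The effect of an inhibitor cannot be told apart from that of its plate. By well position, each time filled 1 row and each stimulus condition 1 column, the same on each plate. Effects of time and stimulus thus cannot be told apart from those of row and column. The labels name no separate cultures or animals. Each p-value thus measures the spread between wells of these plates, or between libraries summed from them, which may be technical.

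Levels are given as CPM (counts-per-million of UMI, distinct molecules counted through a random barcode) after Rn45s, the ribosomal RNA precursor, was left out. Wells held 21810 to 70797 such UMI, and libraries summed over the 8 times of a pretreatment and stimulus held 227325 to 449471. The DMSO wells had 52.7% ± 6.88 of their UMI in Rn45s, the dCA wells 49.0% ± 7.04 and the BRD-6989 wells 43.6% ± 6.75 (SD, n = 96 wells each). All 9 macrophage markers of the table were detected and summed to 3748 to 5344 CPM over the 36 libraries. Markers of mast cells (3 of 3) and red cells (3 of 3) were at 0. Neutrophil markers summed to 15.3 to 61.6 CPM in the DMSO libraries, 0 to 13.3 with dCA and 0 to 9.15 with BRD-6989, with Elane at 0 throughout. Of the T cell markers 2 of 3 were at 0 (up to 16.5 CPM in sum), of the B cell markers 2 of 4 (up to 11.9), of the stromal markers 2 of 4 (up to 17.6) and of the dendritic markers 1 of 4 (up to 68.0, mostly Xcr1). Of the 8 macrophage markers tested across conditions, 2 were higher and 2 lower under dCA (Csf1r, the M-CSF receptor, at -0.24 ± 0.06 log2) and 3 were higher and 4 lower under BRD-6989 (Csf1r at -0.46 ± 0.06; edgeR, adjusted p under 0.05). The part of these cells and markers in the results below was not tested, and fewer cells of a type cannot be told apart from less RNA per cell.

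The 250 bases upstream of the annotated start are shown for Psmd1, called under both inhibitors, and for the 2 members called over time, in RefSeq's GRCm38.p6 (mm10), written 5′ to 3′ on the strand of the gene. Psmd1, which was higher under both inhibitors, starts on chromosome 1 (window chr1:86064369-86064618, plus strand). Psma6, which rose over time after stimulation, starts on chromosome 12 (window chr12:55383972-55384221, plus strand, the first of 2 starts listed). Psmd10, which also rose over time, starts on chromosome X (window chrX:140956712-140956961, minus strand). Capitals mark the CCAAT box on either strand.
Psmd1: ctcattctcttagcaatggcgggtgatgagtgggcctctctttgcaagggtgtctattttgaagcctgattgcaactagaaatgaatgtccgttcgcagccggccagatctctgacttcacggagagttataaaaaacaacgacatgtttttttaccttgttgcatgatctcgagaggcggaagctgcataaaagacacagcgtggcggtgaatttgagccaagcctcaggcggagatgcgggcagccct
Psma6: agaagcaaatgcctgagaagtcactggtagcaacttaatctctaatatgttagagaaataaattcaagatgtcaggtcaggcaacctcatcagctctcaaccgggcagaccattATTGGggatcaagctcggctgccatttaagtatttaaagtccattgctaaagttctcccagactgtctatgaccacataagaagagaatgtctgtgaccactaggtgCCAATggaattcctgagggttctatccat
Psmd10: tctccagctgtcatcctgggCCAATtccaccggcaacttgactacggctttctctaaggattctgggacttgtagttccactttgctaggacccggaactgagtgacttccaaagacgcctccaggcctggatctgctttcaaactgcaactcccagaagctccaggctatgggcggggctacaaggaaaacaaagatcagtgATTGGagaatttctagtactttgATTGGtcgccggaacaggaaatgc
Psma6 held 2 CCAAT boxes, Psmd10 held 3 and Psmd1 none. The RefSeq table gave such a window for 28 of the 34 members, Psmd7 not among them. CCAAT was found in 11 of them (39.3%), against 34.5% of 27025 mouse promoters. The core of the antioxidant response element, TGACNNNGC, to which the proteasome regulator Nrf1 (Nfe2l1) and its relatives bind, was found in 5 of 28 (17.9%: Psmb5, Psmb6, Psmc6, Psmd9 and Psmd12) against 10.1% of all promoters. None of the 3 windows shown held it. Each motif was searched on both strands, overlapping matches were counted, and a match is a description of letters only.

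Every member was detected. Over all wells, levels ran from 23.8 CPM for Psmd9 to 373 for Psmd1, with a median of 111 over the 34 genes. A median member had 0 UMI in 30 of 288 wells, and Psmd5, Psmd9 and Psmd10 had 0 UMI in 162, 154 and 140 wells. The members with the most UMI were Psmd1 (4278 UMI), the base scaffold that holds ubiquitin receptors, Psmd8 (3845), a lid subunit, Psma7 (3762), an alpha subunit, Psmd7 (3633), the lid partner of the deubiquitinase Psmd14, and Psma4 (3184), another alpha subunit. The assay counts transcripts from their 3′ ends, so levels carry no correction for length, though priming and mapping can still differ between genes.

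By role, the 7 alpha genes summed to 1292 CPM, the 7 beta genes to 1032, the 6 ATPases to 572, the scaffolds Psmd1 and Psmd2 to 512, the 9 lid and receptor genes to 1341 and the 3 chaperones to 89.7. Members of 1 ring were far from equal in RNA: the alpha ring ran from 65.4 (Psma5) to 328 CPM (Psma7), the beta ring from 94.5 (Psmb2) to 220 (Psmb6), and the ATPases from 47.5 (Psmc4) to 177 (Psmc3). Among the lid and receptor genes, Psmd12 was lowest at 69.8 and Psmd8 highest at 335 CPM. The variance between the 12 libraries of a pretreatment was 1.54 to 7.81 times the counting variance (median 3.08), smallest for Psmc5 and largest for Psmd2, so libraries varied by more than counting error alone.

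**Figure D1:**
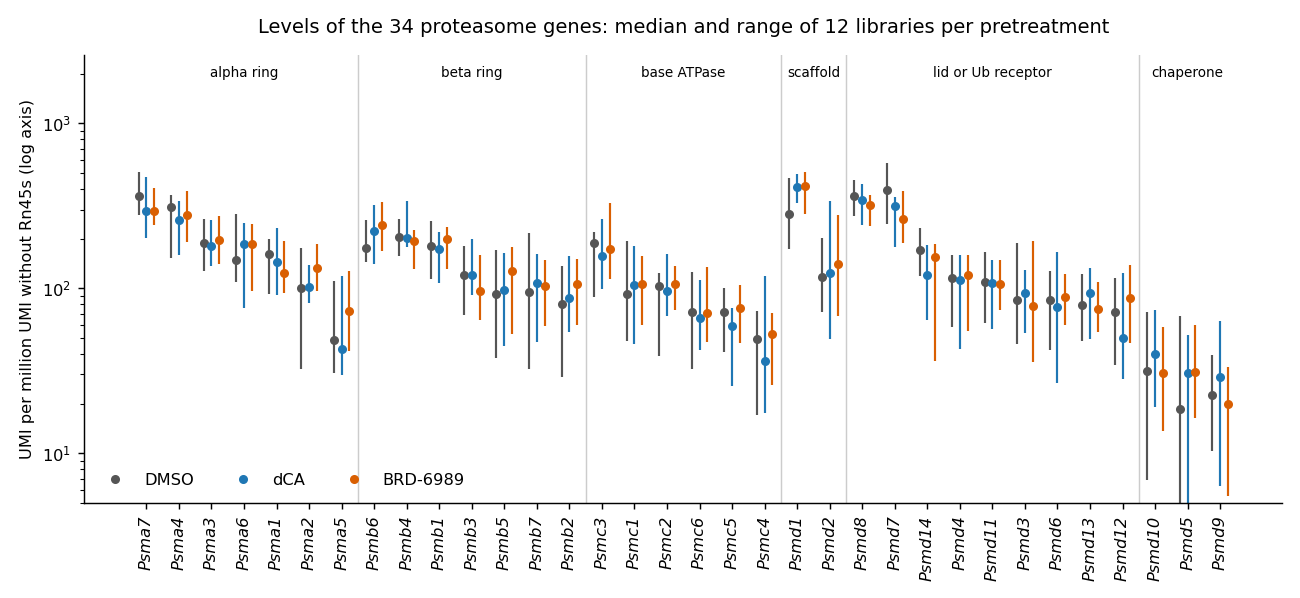
Levels of the 34 genes by role, in CPM without Rn45s on a log axis: points are medians and lines the range of the 12 libraries of each pretreatment (DMSO grey, dCA blue, BRD-6989 orange). Psmd1 lies higher under both inhibitors, Psmd7 lies lower, and the 3 chaperones at the right are the lowest group; lines of Psmd5 that meet the axis run on below it, to 2.92 CPM.

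Summed over the 34 genes, proteasome RNA overlapped between the 3 plates. The sum ran from 4556 to 5192 CPM in DMSO (median 4822), 4310 to 5191 with dCA (median 4748) and 4707 to 5267 with BRD-6989 (median 4871; 12 libraries each). The scaffold pair had a higher median under the inhibitors, at 519 CPM for dCA and 575 for BRD-6989 against 412 for DMSO. The lid and receptor genes had medians of 1305 and 1289 against 1457, and the chaperones 101 and 93.6 against 76.5. These sums are a description and carry no test.

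The question of whether the inhibitors changed proteasome RNA across conditions was addressed in 36 libraries, with the 12 stimulus conditions matched between plates. Of the 33 members tested (Psmd9 had too few UMI), 1 was called under dCA: Psmd1, which was higher. Under BRD-6989, 3 were called: Psmd1 and Psmb6 were higher and Psmd7 was lower. The other 32 and 30 tested members did not pass. Over all 5691 genes tested, 17.9% were called for dCA and 21.0% for BRD-6989 (edgeR quasi-likelihood test, Benjamini-Hochberg adjusted p under 0.05), and the members' shares were lower than these. The median log2 change of the members was 0.06 under dCA (all genes -0.01) and 0.09 under BRD-6989 (all genes 0.0043), and in each comparison 22 of 33 lay above 0. Both comparisons share the DMSO libraries.

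Psmd1 ran from 172 to 465 CPM in DMSO (median 280, 12 libraries), 327 to 491 with dCA (median 411) and 283 to 509 with BRD-6989 (median 418). The DMSO library of SeV, at 465, stood above the other 11, which ended at 319, and the ranges of the groups overlapped. Against DMSO the log2 change was 0.61 ± 0.11 for dCA (SE; adjusted p = 2.76e-05, edgeR), higher in 12 of 12 conditions, and 0.62 ± 0.11 for BRD-6989 (adjusted p = 1.42e-05), higher in 11 of 12. The inhibitors themselves differed by -0.01 (dCA minus BRD-6989; 95% interval -0.22 to 0.20), at doses of 100 nM and 1 uM. Psmd1 overlaps Htr2b and the snoRNA Gm22786 in the annotation, and how the counting treated shared reads is not given in the sources used here.

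Psmd7 ran from 246 to 572 CPM in DMSO (median 394), 177 to 356 with dCA (median 317) and 189 to 391 with BRD-6989 (median 262). It was lower under BRD-6989 in 11 of 12 conditions, by a log2 change of -0.50 ± 0.12 (adjusted p = 0.000838, edgeR). Under dCA it was lower in 10 of 12 conditions, but -0.27 ± 0.12 did not pass (adjusted p = 0.112). The NoStim library was the highest of the DMSO group and the lowest of the dCA group, and without NoStim the dCA value was -0.15 ± 0.11 (adjusted p = 0.400). The difference between the inhibitors was 0.24 (dCA minus BRD-6989) and did not pass either (unadjusted p = 0.0529, adjusted p = 0.333, edgeR). Its 95% interval of 0.0025 to 0.47 takes a normal spread and is slightly narrower than the edgeR test would give.

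Psmb6, the subunit with caspase-like activity, ran from 144 to 260 CPM in DMSO (median 175), 140 to 320 with dCA (median 222) and 168 to 334 with BRD-6989 (median 241). The groups overlapped widely. The log2 change under BRD-6989 was 0.39 ± 0.13 (adjusted p = 0.0289, edgeR; higher in 9 of 12 conditions), and under dCA 0.30 ± 0.14 (adjusted p = 0.122; higher in 9 of 12). The call rested on single conditions: without LPS the adjusted p was 0.0990, without Zymosan 0.0959, without Poly(I:C) 0.0663 and without TDB 0.0664. With total reads in place of UMI it was 0.312. Under dCA it was called without SeV (0.40 ± 0.13, adjusted p = 0.0295). Psmb6 has annotated pseudogenes, and reads shared with them cannot be placed from counts.

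Psmd8, named for its level, ran from 276 to 454 CPM in DMSO (median 363), 242 to 430 with dCA (median 342) and 237 to 369 with BRD-6989 (median 318). Its log2 change was -0.10 ± 0.10 under dCA (adjusted p = 0.593) and -0.24 ± 0.10 under BRD-6989 (adjusted p = 0.0770, edgeR), below DMSO in 10 of 12 conditions for each inhibitor. DESeq2 called it under BRD-6989.

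**Figure D2:**
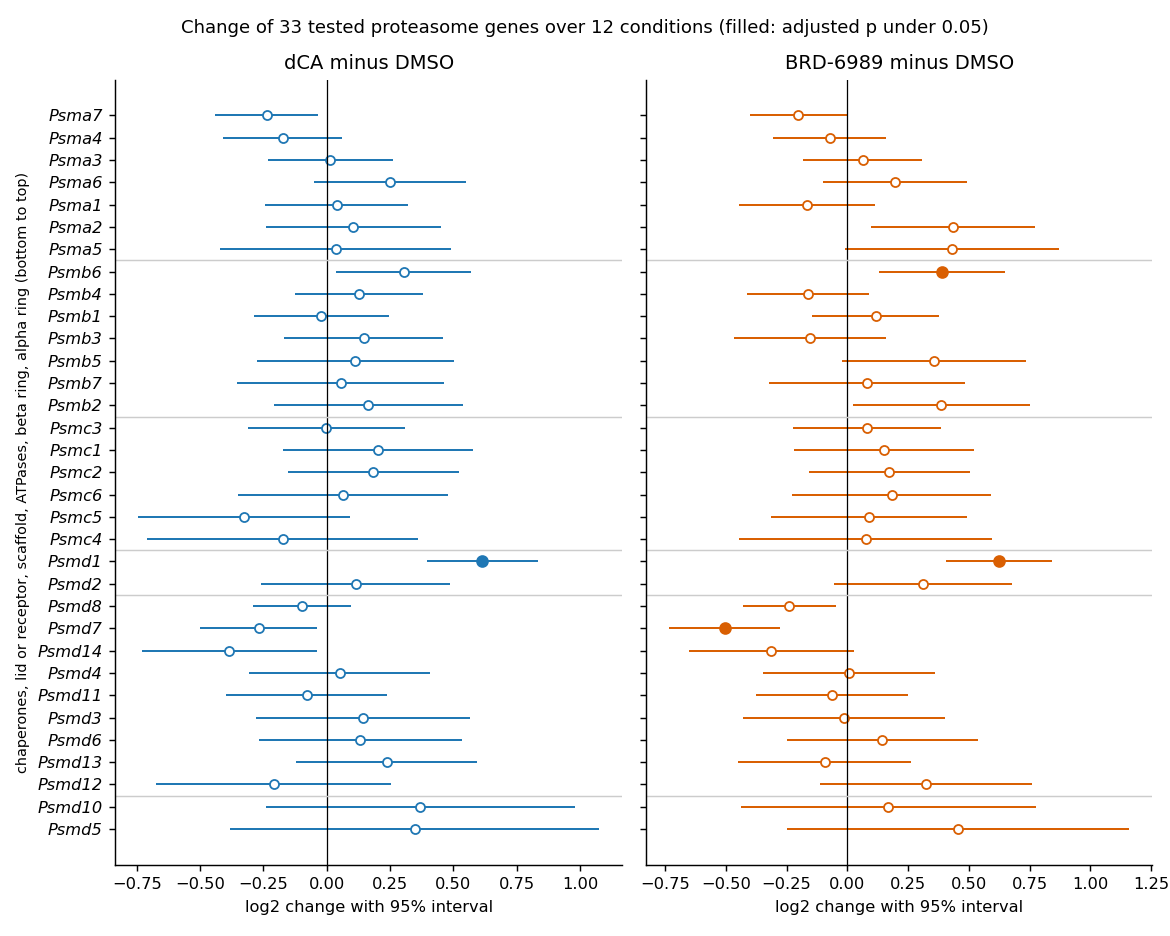
Log2 change of the 33 tested members against DMSO over 12 conditions, for dCA (left) and BRD-6989 (right), with 95% intervals; filled points passed an adjusted p of 0.05 and genes are grouped by role. A filled point (Psmd1) appears for dCA, and Psmd1, Psmb6 and Psmd7 are filled for BRD-6989.

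By role, the alpha ring had no called member under either inhibitor; Psma7, with -0.24 ± 0.10 under dCA (adjusted p = 0.111), and Psma2, with 0.44 ± 0.17 under BRD-6989 (adjusted p = 0.0630), came nearest. Psma7 was called under dCA when CpG was left out. Psmb6 was the called member of the beta ring, whose medians were 0.13 and 0.12 for dCA and BRD-6989. The 6 ATPases, which thread the substrate into the core, gave no call, with medians of 0.03 and 0.12. The second scaffold, Psmd2, did not follow Psmd1 past the test: its log2 values were 0.11 ± 0.19 under dCA and 0.31 ± 0.19 under BRD-6989 (adjusted p = 0.764 and 0.262). In the lid and receptor group, 1 of 9 was called under BRD-6989 (Psmd7), and Psmd14, the deubiquitinase of the lid, lay at -0.39 ± 0.18 under dCA (adjusted p = 0.133) and was called there when R848 was left out. Neither tested chaperone passed. In the direct comparison of the inhibitors, 0 of 33 members were called against 3.30% of all genes; 2 had an unadjusted p under 0.05 (Psmb4 and Psmd12), and DESeq2 called 0.

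The share of Rn45s was lower on both inhibitor plates than on the DMSO plate. With that share as a covariate, Psmd1 stayed called under dCA (0.56 ± 0.14, adjusted p = 0.00447), while under BRD-6989 no member was called (Psmd1 0.48 ± 0.25, adjusted p = 0.380; Psmd7 -0.49 ± 0.27, adjusted p = 0.411; Psmb6 0.07 ± 0.30, adjusted p = 0.953) and the count over all genes fell from 1197 to 194. Without TMM scaling 41.2% of all genes called for dCA were higher, against 54.8% with it, and Psma7 and Psmd7 were then called lower under dCA. For the direct comparison that share was 50.9% without TMM and 66.5% with it. The median of all genes moved to -0.07 for dCA without TMM, and that of the members to -0.002. The part of Rn45s and of the plate in the calls cannot be told apart from that of the inhibitor.

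**Figure D3:**
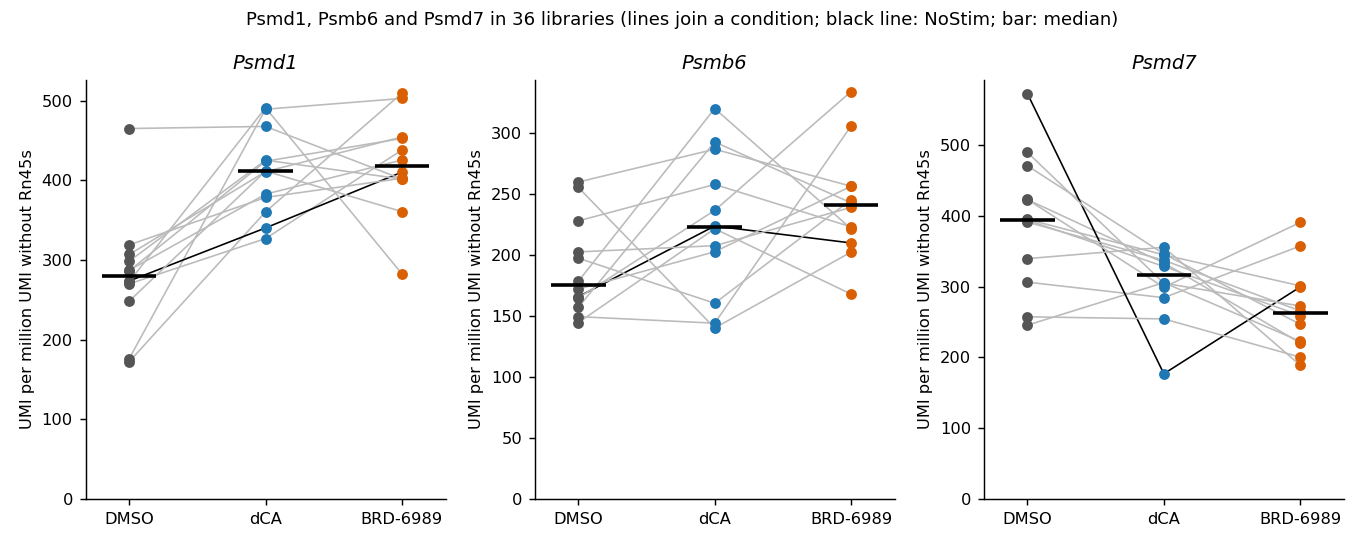
Psmd1, Psmb6 and Psmd7 in each of the 36 libraries, in CPM without Rn45s from 0 up; grey lines join the 3 libraries of a stimulus, the black line is NoStim and bars are medians. Psmd1 medians go from 280 in DMSO to 411 and 418, Psmd7 medians from 394 to 317 and 262, and the Psmb6 groups overlap.

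In wells without ligand, the inhibitors were compared over 8 times with 33 members tested (Psmd10 had too few UMI). Under dCA 1 member was called, Psmd7, against 0.908% of 5834 genes; under BRD-6989 0 members were called against 1.06%, with 2 at an unadjusted p under 0.05 (Psma2 and Psmd7), and DESeq2 called Psma2 (1 member). Psmd7 ran from 260 to 1220 CPM in the 8 DMSO wells (median 457, 159 UMI in all), 111 to 330 with dCA (median 155, 53 UMI) and 83.0 to 510 with BRD-6989 (median 337, 100 UMI). The DMSO wells of 15 and 45 min stood far above the rest, at 1004 and 1220 CPM, and 4 of the remaining 6 also lay above the highest dCA well. The log2 change for dCA was -1.56 ± 0.42 (adjusted p = 0.0250, edgeR) and for BRD-6989 -0.81 ± 0.40 (adjusted p = 0.581). The dCA call ended without any one of 15, 45, 60, 150 and 180 min, with values between -1.35 and -1.56, and ended with total reads (adjusted p = 0.381). Psmd1 gave 0.49 ± 0.42 for dCA and 0.79 ± 0.41 for BRD-6989 here (adjusted p = 0.892 and 0.610).

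Which members answered the ligands was asked in the 180 wells of 60 min and later, 15 wells per condition over the 3 plates. As a mean of the 11 stimuli, 0 of 33 members were called against 2.29% of 5771 genes, and 2 had an unadjusted p under 0.05: Psmd10 at 1.60 ± 0.64 (adjusted p = 0.236, edgeR), a fold that rests on few NoStim UMI, and Psmc3 at -0.57 ± 0.26 (adjusted p = 0.361). Single stimuli gave 0 calls among 363 pairs of member and stimulus, against 1.98% of all 63481 pairs, and 21 pairs had an unadjusted p under 0.05. The median of the members lay between -0.12 for LPS and 0.14 for FLA. The smallest adjusted p, 0.0653, was that of Psmd10 under Pam3cys, a gene that passed the filter only through its stimulated wells. For the effect of each inhibitor on the mean response 0 of 33 members were called, as were 0% of all genes (edgeR; 333 genes for dCA and 259 for BRD-6989 at an unadjusted p under 0.05), with 3 members for dCA and 3 for BRD-6989 at an unadjusted p under 0.05. For Psmd7 the effect of dCA on the response was 1.00 ± 0.57 (95% interval -0.13 to 2.12).

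Time after stimulation was followed in 24 libraries, each the sum of the 11 stimulated wells of a plate and time. Time was also the row of the plate, so an effect of time cannot be told apart from one of row. Here 2 of 34 members rose, Psma6 and Psmd10, against 8.93% of 6689 genes, and 0 fell. Psmd7 had a slope of 0.16 ± 0.05 (adjusted p = 0.0590, edgeR), which passed with the Rn45s share as a covariate. In NoStim wells 0 of 33 members had a slope that passed, against 0.0171% of genes (1 gene), with 1 member (Psmc3) at an unadjusted p under 0.05.

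Psma6, an alpha ring subunit, held 133 CPM at 15 min and 238 at 180 min in stimulated DMSO wells. On the dCA plate it held 165 at 15 min, 111 at 45 min and 321 at 180 min. The BRD-6989 plate held 100, 141 and 306 CPM at the same 3 times. The 180 min library was the highest of its plate on each of the 3 plates. The slope was 0.43 ± 0.06 log2 units per hour (adjusted p = 9.01e-07, edgeR), and without any 1 plate it stayed between 0.37 and 0.49 and called. In NoStim wells the slope was -0.45 ± 0.27 (adjusted p = 1.00), and levels ran from 28.4 to 314 CPM with DMSO, 0 to 444 with dCA and 53.8 to 367 with BRD-6989. Single NoStim wells held 0 to 15 UMI of Psma6. The gene spans chr12:55384222-55418459.

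A test added after these values had been seen compared the stimulated with the NoStim slope directly. Psma6 differed by 0.85 ± 0.22 log2 units per hour (adjusted p = 0.0248, edgeR) and was the 1 called member of 34, against 1.08% of 10202 genes. The call ended without any one of the plates, with adjusted p between 0.0715 and 0.245 and differences between 0.64 and 1.00.

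**Figure D4:**
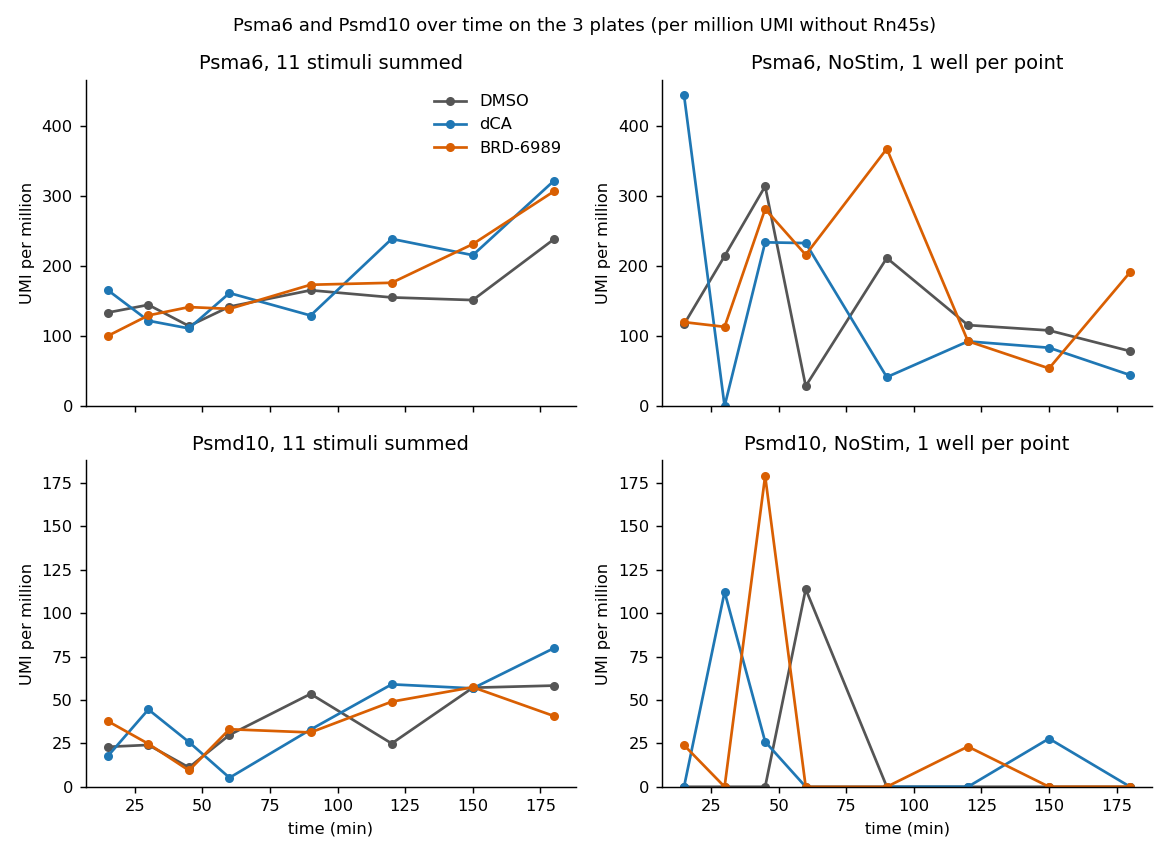
Psma6 (top) and Psmd10 (bottom) in CPM without Rn45s against time in min, for the 11 stimuli summed (left) and the single NoStim well of each plate (right), coloured by pretreatment. Stimulated Psma6 is highest at 180 min on all 3 plates, from 238 to 321 CPM, while the NoStim wells scatter from 0 to 444.

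Psmd10, the assembly chaperone also known as gankyrin, rose at 0.56 ± 0.14 log2 units per hour in stimulated libraries (adjusted p = 0.00331, edgeR). Its levels were low: 23.0 CPM at 15 min and 58.3 at 180 min in DMSO (10 and 23 UMI), 17.6 and 79.8 in dCA (8 and 35 UMI), and 37.8 and 40.7 in BRD-6989 (20 and 23 UMI). On the BRD-6989 plate the first and last times were thus near each other, and the lowest value, 9.42, fell at 45 min. Without the dCA plate the call ended (0.49 ± 0.16, adjusted p = 0.0620). Its slope exceeded that in NoStim wells by 1.77 ± 0.53, which did not pass (adjusted p = 0.0739). Psmd10 passed the filter of that fit only through the stimulated libraries. From 120 min on, the 9 NoStim wells held 2 UMI of Psmd10 among 361985, or 5.53 CPM (95% Poisson interval 0.669 to 19.96, counting error only). Before 120 min the NoStim wells held 17 UMI among 549410, or 30.9 CPM (18.0 to 49.5). Of these, 7 UMI came from the BRD-6989 well of 45 min. The slope difference thus includes a fall in NoStim that rests on few UMI. Psmd10 overlaps the protein-coding gene Atg4a in the annotation.

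Slopes of Psma6 for single stimuli, 24 wells each, were computed after the data had been seen. Pam3cys gave 0.86 ± 0.22 log2 units per hour (adjusted p = 0.0243, edgeR, against 1.19% of genes called) and MDP_LPS 0.79 ± 0.24 (adjusted p = 0.0386, against 3.38%), and these were the calls for Psma6 among the 12 conditions. LPS followed at 0.67 ± 0.22 (adjusted p = 0.0728), FLA at 0.58, CpG at 0.51, R848 at 0.45, Zymosan at 0.38 and MDP at 0.28. TDB was near 0 at 0.06 ± 0.26, and Poly(I:C) (-0.16), NoStim (-0.45) and SeV (-0.63 ± 0.31) lay below 0 without passing. A test of whether the slope differed among the 11 stimuli, also added, called Psma6 (adjusted p = 0.0142) as the 1 member of 33, against 2.03% of 5854 genes. That call ended without any one of the plates (adjusted p 0.101 to 0.520) and with total reads (0.268).

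**Figure D5:**
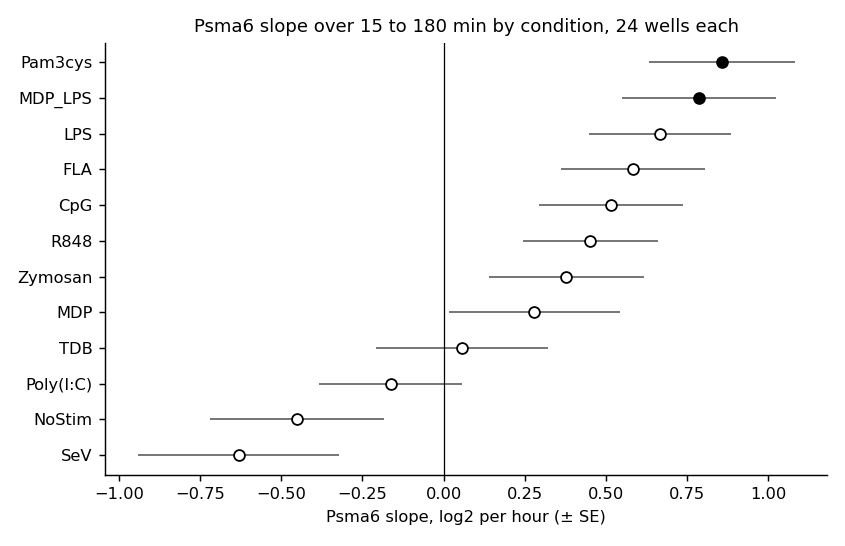
Slope of Psma6 over 15 to 180 min in log2 units per hour (± SE) for each condition, 24 wells each; filled points passed an adjusted p of 0.05. Pam3cys (0.86) and MDP_LPS (0.79) are filled at the top, and SeV (-0.63) and NoStim (-0.45) lie at the bottom.

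In levels, the wells of 120 min and later held 318 CPM of Psma6 under CpG (99 UMI), 316 under Pam3cys (116 UMI), 285 under MDP_LPS (109 UMI), 285 under LPS (102 UMI), 281 under FLA (113 UMI) and 265 under R848 (102 UMI). Zymosan held 222, MDP 180, Poly(I:C) 160 and TDB 156 CPM. NoStim held 96.7 (35 UMI, 95% Poisson interval 67.3 to 134) and SeV 64.4 (24 UMI, 41.2 to 95.8). Before 120 min the 12 conditions ran from 85.5 under Pam3cys to 195 in NoStim, so NoStim was the highest of the early values and among the lowest of the late ones. The late level exceeded the early one on all 3 plates under CpG, LPS, MDP_LPS, Pam3cys and R848, and on 0 of 3 in NoStim and SeV. In a contrast with NoStim over these late wells, a cut chosen after the data had been seen, Psma6 was called for CpG (1.62 ± 0.47, adjusted p = 0.0490, edgeR), LPS (1.61 ± 0.47, 0.0216), MDP_LPS (1.495 ± 0.465, 0.0427) and Pam3cys (1.58 ± 0.46, 0.0476). With Psmd10 under Pam3cys these were 5 of 363 pairs, against 1.91% of all pairs. All of these contrasts share the same late NoStim wells, with 35 UMI of Psma6, so the calls are not independent. The adjustment was made within each stimulus and not across them. Psmd10 passed the filter of this contrast only through its stimulated wells, and NoStim wells alone held too few UMI of it for a test. Its call is therefore given as a count only, with no fold here. Psmd10 held 95.3 CPM under Pam3cys (35 UMI) and 5.53 in NoStim (2 UMI). Before 120 min it held 29.6 CPM under Pam3cys (18 UMI) and 30.9 in NoStim (17 UMI).

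The other genes of the ubiquitin-proteasome system came from a list of 36, of which 35 were in the table and 28 were tested across conditions. Under dCA 3 were higher and 2 lower, 5 of 28 in all, against 17.9% of all genes. Among the higher ones were Rps27a (0.35 ± 0.05, adjusted p = 1.80e-07, edgeR), which encodes ubiquitin fused to a ribosomal protein, and Shfm1 (0.46 ± 0.08), a small lid subunit. Among the lower ones was Psme2 (-0.52 ± 0.11, adjusted p = 0.000343), a subunit of the PA28 activator that interferon induces. Under BRD-6989 3 were higher and 5 lower, 8 of 28 in all, against 21.0% of all genes. Shfm1 (0.40 ± 0.08), Rps27a (0.21 ± 0.05) and Txnl1 (0.57 ± 0.21), a thioredoxin-like protein of the 19S particle, were higher. Among the lower ones were Psme2 (-0.59 ± 0.11, adjusted p = 3.45e-05) and its partner Psme1 (-0.61 ± 0.13, adjusted p = 0.000467). Over time after stimulation, 2 of 31 rose, Sqstm1 (0.40 ± 0.05 log2 units per hour) and Psme2 (0.40 ± 0.06), and 0 fell, against 8.93% of all genes. Nfe2l1, which encodes Nrf1, lay at -0.09 ± 0.16 under dCA and -0.12 ± 0.15 under BRD-6989 (adjusted p = 0.778 and 0.644).

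Of the immunoproteasome genes, Psmb8 was lower under both inhibitors and Psmb10 under BRD-6989. Psmb8 went from a median of 279 CPM in DMSO to 147 in dCA and 146 in BRD-6989 (12 libraries each), with log2 changes of -0.75 ± 0.13 (adjusted p = 1.23e-05, edgeR) and -0.94 ± 0.13 (8.61e-08). Its constitutive counterpart Psmb5 had medians of 92.8, 98.0 and 127 CPM and was not called. Psmb10 lay at -0.45 ± 0.17 under dCA (adjusted p = 0.0533) and fell under BRD-6989, at -0.58 ± 0.17 (adjusted p = 0.00703), while Psmb7 had medians of 94.5, 108 and 103 CPM and was not called. Psmb9 was too low to be tested across conditions (130, 63 and 73 UMI on the 3 plates), and Psmb6, its counterpart, was the catalytic member called higher under BRD-6989. After stimulation Psmb10 rose over time (0.40 ± 0.08 log2 units per hour, adjusted p = 0.000349, edgeR). The slopes of Psmb8 (0.16 ± 0.07, adjusted p = 0.217) and Psmb9 (0.25 ± 0.16, adjusted p = 0.423) did not pass. The difference in change between a constitutive gene and its counterpart was not tested.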

How the data were processed

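The authors deposited, for 23481 genes and 288 wells, UMI counts (distinct barcodes per gene, not normalized) and total read counts from 3' digital gene expression of polyA RNA. Per the submitters' processing notes, BWA and edgeR were used with mm10; their versions and the counting steps are not given in the sources consulted. All columns matched a sample label (0 left over). TF-seq files were not used. No pair of wells held identical counts.

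Rn45s was left out first. Tests used edgeR 4.0.16 (TMM, quasi-likelihood, R 4.3.3, limma 3.58.1, data.table version 1.17.8), two-sided, with Benjamini-Hochberg adjustment over all genes of a comparison and 0.05 as the threshold; DESeq2 1.42.0 was an alternative. Libraries summed over the 8 times (36) or over the 11 stimuli (24) were filtered by filterByExpr with a minimum count of 10, single wells by a mean of at least 1 UMI. Stimulus condition, time or pretreatment entered as blocks. The 12 conditions or 8 times pair the plates by label only. Slopes use time in hours. SE is the log2 change over the square root of F. Poisson intervals cover counting error only. The fits were tested on simulated data.

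The members, gene lists and tests were chosen with earlier results of these data known. By a fixed rule every member is accounted for by role, those called for an inhibitor and the 2 most abundant get full values, up to 5 per other comparison are named, and up to 3 other genes of the pathway are named each way per inhibitor. Some genes that the rule would name are not reported here. Alternatives changed the scaling, filter, count type, Rn45s handling, times, blocks and the libraries included. Gene positions, overlaps and promoter windows come from RefSeq's GRCm38.p6; all 34 members matched.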

Additional observations from a re-analysis of the deposited data

Results flagged for a closer look

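In the 8 unstimulated DMSO wells, Psmd1 stood at 784 CPM at 180 min, against 297 in the next highest well, a gap of 0.66 of the whole range. This was 1 of 12 groups of 8 wells looked at for a lone value, of which chance flags about 1 in 20. Psma6 differed between stimulated and unstimulated libraries in its slope over time, by 0.85 log2 units per hour, and its slope differed among the 11 stimuli with an adjusted p of 0.0142 (edgeR quasi-likelihood test). Both of these tests were added after the data had been seen. Both calls ended without any one of the plates, and the call among stimuli also ended with total reads. No explanation was tested.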

How the results depend on the processing

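For Psmd1, Psmb6, Psmd7, Psma6 and Psmd10 the direction was kept under every alternative compared, from 4 to 23 settings per result. Slopes on log2 of time, which have another unit, were left out of this comparison. Other named members were followed only through the counts of calls. Psmd1 under dCA was called in 23 of 23 (0.44 to 0.67), Psmd1 and Psmd7 under BRD-6989 in 22 of 23 each (0.48 to 0.70 and -0.59 to -0.46), and Psmb6 under BRD-6989 in 16 of 23 (0.07 to 0.55). For dCA against DMSO, the count of members called went from 1 to 3 without TMM and to 3 with single wells, and ran from 1 to 2 when each stimulus was left out. For BRD-6989 it went from 3 to 0 with the Rn45s share as a covariate, and between the inhibitors from 0 to 1 (Psmd12) from 60 min on. In unstimulated wells the dCA count went from 1 to 0 with total reads and to 0 with no filter, and ran from 0 to 1 when each time was left out; the BRD-6989 count went from 0 to 1 with DESeq2. Over single stimuli the count went from 0 to 1 (Psma6, LPS) with wells summed over times and to 5 from 120 min on. The count of slopes ran from 1 to 2 when each plate was left out, that of slope differences from 0 to 1, and that of slopes differing among stimuli was 0 without each plate and 0 with total reads. With no replicate block (stimulus condition as block left out) the counts of members were 1, 3 and 0 for dCA, BRD-6989 and the direct comparison, as with the block, and the block changed no call of a member in unstimulated wells; over all genes it changed the direct comparison from 188 to 62. Over all genes the counts ran from 601 to 1145 for dCA (1021 as reported), from 194 to 1320 for BRD-6989 (1197), from 62 to 263 for the direct comparison (188), from 35 to 83 and from 26 to 98 in unstimulated wells (53 and 62), from 28 to 591 for the mean of 11 stimuli (132), from 279 to 4003 for pairs with single stimuli (1257), from 368 to 620 for slopes (597), from 0 to 12 for unstimulated slopes (1), from 53 to 336 for the slope difference (110) and from 49 to 1828 for slopes differing among stimuli (119). The cause of these differences was not tested. Depth limits Psmd5, Psmd9 and Psmd10 most, with 344, 273 and 412 UMI over all wells.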

Other observations

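Nfkbia, the inhibitor of NF-kB that stimulation induces, is the next protein-coding gene beyond the end of Psma6 on chromosome 12: 71.0 kb separate them, with 2 other annotated genes between. Nfkbia was higher than in NoStim wells from 60 min on by a log2 change of 2.87 ± 0.19 as the mean of 11 stimuli (adjusted p = 7.68e-31, edgeR), and by 0.99 ± 0.23 under SeV, the smallest of the 11. In the same wells Psma6 gave 0.47 ± 0.29 (adjusted p = 0.584) as the mean, with single stimuli between -0.32 ± 0.39 under TDB, where Nfkbia was higher by 1.87 ± 0.22, and 1.02 ± 0.38 under LPS, where Nfkbia was higher by 3.96 ± 0.23. Under SeV it gave -0.18 ± 0.39, and under FLA 0.98 ± 0.37 beside 2.45 ± 0.22 for Nfkbia. Over time in stimulated libraries, Nfkbia had a slope of 0.24 ± 0.10 log2 units per hour that did not pass (adjusted p = 0.178), whereas Psma6 had one of 0.43 ± 0.06 that did. No relation between the 2 genes was tested.

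In unstimulated wells the sum of the 34 genes was 5192 CPM in DMSO, the highest of the 12 DMSO libraries, and 4530 in dCA, the third lowest of the 12 dCA libraries. In the same libraries Psmd7 was the highest of its group in DMSO (572) and the lowest in dCA (177). With 1 summed library each, these levels have no replicate beyond the 8 wells that make them.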
